A study of Mus musculus with 6 samples.

Results

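TRBV1 is the most upstream variable gene of the mouse T cell receptor β (TCR-β) locus, and its rearranged transcripts were followed here in 6 TCR-β libraries. The sequences were chosen by their V assignment alone: every listed sequence assigned to TRBV1 whose complementarity-determining region 3 (CDR3) carries no stop or frame mark. Of 198807 unmarked entries in the 6 libraries, 13704 met this rule, and they amount to 12821 distinct clonotypes of 187625 in the series. A clonotype is 1 CDR3 amino acid sequence with its TRBV and TRBJ assignment. No expression level entered the choice.

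The libraries came from C57BL/6 mice that received 100000 MO4 cells, a B16F10 melanoma line expressing ovalbumin (OVA), under the skin of each hindlimb on day 0. Cells named IFN-α-iPSC-pMC in the labels (1000000 per injection) were placed next to the right tumor 5 times, first on days 5 to 7 and again on days 12 and 13. The 3 groups are the treated (right) tumor, the distant (left) tumor that had no injection beside it, and the spleen, with 2 libraries each. The series names 2 mice, so the title numbers 1 and 2 were taken as the mice. Every library therefore comes from a treated, tumor-bearing mouse, and there is no untreated animal among these samples. Tumor RNA was taken on day 14. The files hold TCR-β sequences only, so the labelled tissues could not be checked against marker genes of other cells, and more TRBV1 T cells cannot be told apart from more TCR RNA per cell.

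A TCR-β chain is assembled in the thymus by joining a D to a J segment and then a V segment to the DJ product. The CDR3 spans the joints, from a conserved V cysteine to a J phenylalanine, and makes most of the contact with the presented peptide. TRBV1 was called Vβ2 in the older nomenclature. Its germline end codes for a second cysteine inside the CDR3, which is unusual among V genes. D1 can join either J cluster, whereas D2 lies downstream of the TRBJ1 cluster and normally joins TRBJ2 genes.

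In the GENCODE M21 annotation (GRCm38), Trbv1 (ENSMUSG00000076461.2) occupies chr6:40891229-40891885 on the plus strand, with no annotated TRB gene before it. Its end lies 155 kb from TRBV2 and 641 kb from TRBD1, and 652 kb from TRBJ2-7. For comparison, 251 kb separate TRBV30 from TRBD1. The last 60 bases of the germline gene show where the second cysteine comes from. The capitals mark the 17 bases that belong to the CDR3, which read as the residues CTCSA plus the first 2 bases of a codon for aspartate or glutamate. The D genes that follow in a rearranged chain are shown under it, since their reading frames give the residue motifs described below.
TRBV1, germline 3′ end: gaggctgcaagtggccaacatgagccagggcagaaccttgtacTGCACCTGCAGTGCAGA
TRBD1: GGGACAGGGGGC
TRBD2: GGGACTGGGGGGGC
A further stretch of TRBV1 bears on the library protocol, in which double-stranded cDNA was cut with SphI after the adaptor had been ligated to its 5′ end. The capitals mark the SphI recognition sequence, at bases 28 to 33 of the annotated transcript and upstream of the start codon, which begins at base 68.
TRBV1, 5′ part of the transcript: gcctgatgccctGCATGCcccacagagata
Among the annotated transcripts of the 23 TRBV genes in the files, 1 holds this sequence, that of TRBV1. Several of the other annotated transcripts have little 5′ sequence, so a site there cannot be seen. Whether the cut changes the share of TRBV1 was not tested.

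The TRBV1 clonotypes that lead the libraries are given by their CDR3, because the results on clones turn on them. They are shown where the CDR3 has at most 14 residues; a longer one is named by its J gene, its length and the tumor in which it led. One letter stands for 1 residue.
Leading in treated tumor 2, with TRBJ1-5: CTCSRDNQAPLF
Leading in distant tumor 1, with TRBJ1-1: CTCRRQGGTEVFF
Leading in both spleens, with TRBJ2-7: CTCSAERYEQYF
The leading clonotype of treated tumor 1 has 16 residues and TRBJ2-3, and that of distant tumor 2 has 15 residues and TRBJ1-2.

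The 6 libraries held 44472 to 145211 reads, of which 42320 to 135599 carried no mark, and shares below are of these unmarked reads. A single read was worth 0.000737% to 0.00236% of a library, and for a clonotype with no read the upper limit is 3 reads, or 0.00221% to 0.00709%. The labels name no molecular identifiers, so intervals and floors cover counting error only.

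TRBV1 made up a smaller part of the repertoire in every tumor than in either spleen. It took 5.55% of the reads in treated tumor 1 (95% Wilson interval 5.40% to 5.71%) and 4.87% in treated tumor 2 (4.69% to 5.05%). The distant tumors had the lowest shares, 2.95% in number 1 (2.84% to 3.07%) and 4.01% in number 2 (3.83% to 4.20%). In the spleens the share was 8.51% (8.33% to 8.68%) and 7.16% (7.03% to 7.30%). These shares made TRBV1 the gene of rank 2 and 3 of 23 in the spleens, rank 6 and 7 in the treated tumors and rank 10 in both distant tumors. The spleen share was 1.53 and 1.47 times that of the treated tumor of the same number and 2.88 and 1.79 times that of the distant tumor. As means, TRBV1 took 4.35% ± 1.12 (SD, n = 4) of tumor reads and 7.83% ± 0.948 (SD, n = 2) of spleen reads.

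**Figure D1:**
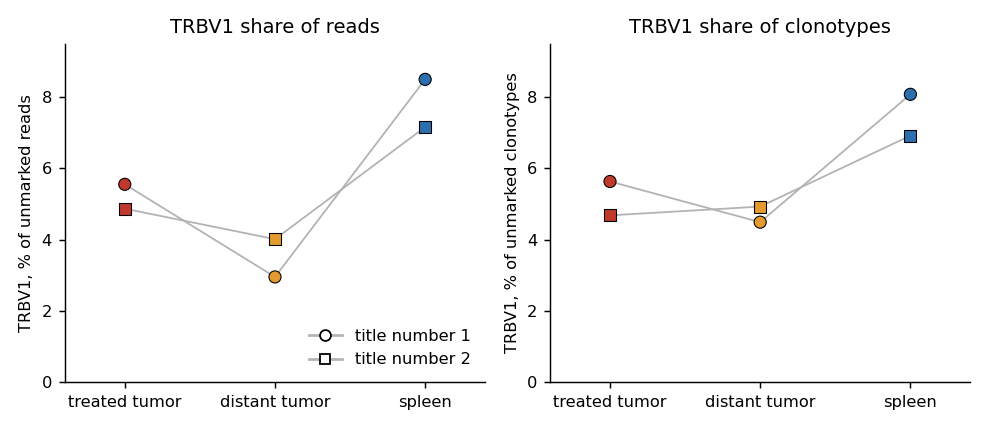
Share of TRBV1 among unmarked reads (left) and among clonotypes counted once (right), in percent, for each library; circles and squares are title numbers 1 and 2, joined by lines. All 4 tumors lie below both spleens in both panels, and the treated tumors lie above the distant tumors for reads only.

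Of all V genes, 4 of the 23 TRBV genes (17.4%) were lower in all tumors than in both spleens, TRBV1 among them, and 2 (8.7%) were higher. In the fit over all 23 TRBV genes, TRBV1 was 0.88 lower on the log2 scale in the tumors (log2 fold change -0.88, SE 0.27), with an adjusted p of 0.185 in edgeR's quasi-likelihood test. None of the 23 genes passed an adjusted p of 0.05 in this fit (0%), and 4 (17.4%) had an unadjusted p under it, TRBV1 among them with 0.0175. An exact two-sided permutation test of the shares themselves, 4 tumors against 2 spleens, gave p = 0.0667, the smallest value this design allows. It treats the libraries of a mouse as independent, which they are not. With clonotypes counted once, the log2 fold change was -0.61 (SE 0.23, adjusted p = 0.103, edgeR), and the shares were 4.49% to 5.63% in the tumors and 6.92% to 8.08% in the spleens.
The treated tumors exceeded the distant tumors of the same number in TRBV1 reads, by 1.88 times in number 1 and 1.21 times in number 2. The fitted log2 fold change was 0.58 (SE 0.33), which did not pass edgeR's test (adjusted p = 0.313). It was 0.33 with TMM scaling and 0.26 with DESeq2. In distant tumor 1, TRBV12-1 took 24.4% of the reads, against 1.44% to 5.37% in the other libraries. Whether this bears on the TRBV1 ratios was not tested. Of the 23 genes, 5 (21.7%) had both treated tumors above both distant tumors and 3 (13%) had them below. Counted by clonotypes the groups overlapped, with 5.63% and 4.68% in the treated and 4.49% and 4.93% in the distant tumors (log2 fold change 0.13, SE 0.28, adjusted p = 0.921, edgeR).
The shares were also compared without the leading clonotypes. Once the 10 leading clonotypes of a library, whatever their V gene, were left out, the log2 fold change of tumors against spleens moved from -0.88 to -0.55 (SE 0.26, adjusted p = 0.290, edgeR). That of treated against distant tumor moved from 0.58 to 0.25 (SE 0.31, adjusted p = 0.910, edgeR). The causes of these shifts were not tested.

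By mean share over the 6 libraries, TRBV1 (5.51%) stood between TRBV13-1 (5.78%) and TRBV29 (5.47%). Neither neighbour was lower in all tumors than in the spleens: TRBV13-1 averaged 5.80% in tumors and 5.73% in spleens, and TRBV29 averaged 5.63% and 5.15%. The most similar patterns were those of TRBV15, TRBV13-2 and TRBV31. Likeness was measured as the root-mean-square difference of log2 shares, each centred on its own mean over the 6 libraries, among the 21 genes with at least 10 reads in every library. It was 0.29 for TRBV15, 0.30 for TRBV13-2 and 0.33 for TRBV31. TRBV31, which lies at the opposite end of the locus, was also lower in all tumors (1.26% to 4.12%) than in the spleens (6.13% and 5.13%). TRBV4 (0.859% to 2.28% in tumors, 2.92% and 2.66% in spleens) and TRBV21, a gene at 0% to 0.00473% in tumors and 0.0237% and 0.0192% in spleens, were the other 2 such genes.

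**Figure D2:**
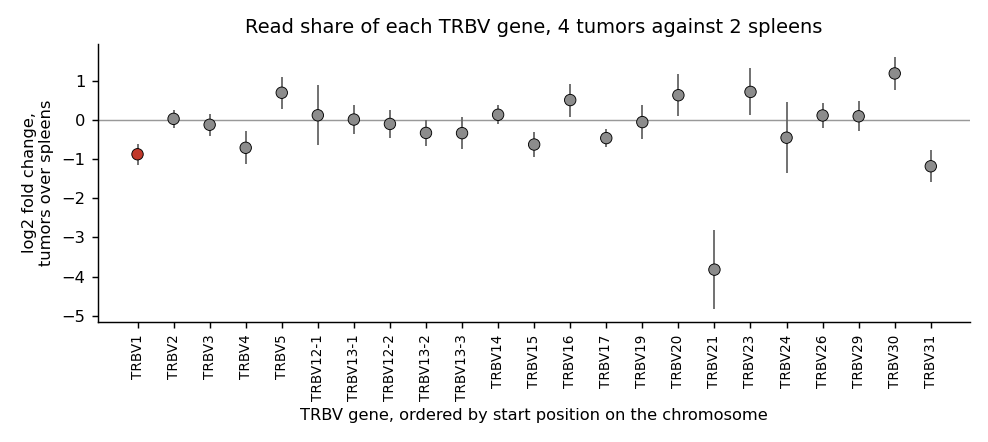
Log2 fold change of read share, tumors over spleens, for each of 23 TRBV genes in the order of their start on the chromosome; points are edgeR estimates, bars are ± 1 SE, and TRBV1 is in red. TRBV1 at the left end stands at -0.88 and TRBV31 at the right end at -1.19, and no gene passed an adjusted p of 0.05.

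In these 6 libraries, TRBV1 was joined to another mix of J genes than the other 22 TRBV genes. Clonotypes were counted once for this, so that the reads of an expanded clone do not decide. Sequences that differ from an expanded clone by 1 residue still count as clonotypes of their own. Each library gave a TRBV1 column and a column for the rest. In edgeR's quasi-likelihood test with library as a block, 3 of 12 TRBJ genes (25%) passed. TRBJ1-5 and TRBJ1-6 were more frequent with TRBV1 and TRBJ1-2 was less frequent. The test treats the 6 libraries as independent, although they come from 2 mice.
TRBJ1-5 was higher with TRBV1 in each of the 6 libraries (log2 fold change 1.35, SE 0.46, adjusted p = 0.0298, edgeR). It took 2.64% and 15.01% of TRBV1 clonotypes in the treated tumors, 5.17% and 3.73% in the distant tumors and 4.47% and 3.54% in the spleens. With the other TRBV genes its share ran from 1.06% to 2.56%. Treated tumor 2 stands far above the rest and holds the expanded TRBJ1-5 clonotype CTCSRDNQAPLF with 22 clonotypes that differ from it by 1 residue. With low-read variants of 1 residue merged into their more abundant clonotype, treated tumor 2 still had 13.3%. The other libraries then had 2.73% to 5.41%. Without treated tumor 2 the log2 fold change was 0.90 (SE 0.21, adjusted p = 0.00172, edgeR).
TRBJ1-6 was also higher in each library (0.64, SE 0.22, adjusted p = 0.0298, edgeR). Its shares with TRBV1 were 8.07% and 12.7% in the treated tumors, 9.15% and 6.86% in the distant tumors and 3.69% and 4.35% in the spleens. The matching shares with the other genes were 3.31%, 9.16%, 5.80%, 4.11%, 3.22% and 2.97%. This gene did not pass with low-read variants of 1 residue merged into their more abundant clonotype (0.54, adjusted p = 0.0791, edgeR) or without the library block (0.57, adjusted p = 0.171, edgeR).
TRBJ1-2 was lower in each library (-0.86, SE 0.28, adjusted p = 0.0298, edgeR). It took 1.67%, 2.55%, 2.58% and 5.29% of TRBV1 clonotypes in the tumors, in the same order, and 4.47% and 4.02% in the spleens. With the other genes it took 5.07% to 11.5%, the highest value being that of distant tumor 1. There it held 24.7% of the reads of the other genes. Counted by reads, TRBJ1-2 was higher with TRBV1 in 1 of 6 libraries, distant tumor 2, at 9.01% against 6.20%. With 1 library left out, its log2 fold change by clonotypes ran from -1.02 to -0.64.
The J genes most used with TRBV1 were TRBJ2-7 with 16.2% ± 2.46 (SD, n = 6), TRBJ2-4 with 10.6% ± 2.00 and TRBJ2-1 with 10.2% ± 3.15. TRBJ2-7 was lower with TRBV1 than with the other genes in each library, whose mean was 19.6%, but did not pass (-0.27, SE 0.13, adjusted p = 0.113, edgeR). TRBJ2-4 was higher in 5 of 6 libraries and TRBJ2-1 in 1 of 6 (log2 fold changes 0.31 and -0.25, adjusted p = 0.113 and 0.150, edgeR). None of the 12 genes passed when reads were tested in place of clonotypes, nor when treated tumor 1, distant tumor 1 or distant tumor 2 was left out. Without spleen 1 TRBJ1-5 did not pass (adjusted p = 0.0504, edgeR), and without spleen 2 TRBJ1-6 did not (adjusted p = 0.0711, edgeR).

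**Figure D3:**
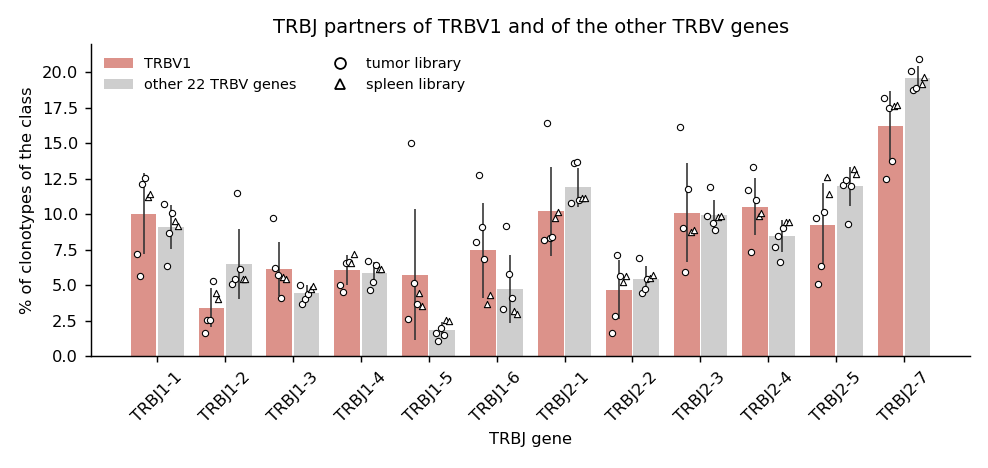
Share of each TRBJ gene among the clonotypes of TRBV1 (red bars) and of the other 22 TRBV genes (gray bars), in percent; bars are means over 6 libraries, lines are ± 1 SD, circles are tumor and triangles are spleen libraries. TRBJ1-5 and TRBJ1-6 are higher and TRBJ1-2 is lower with TRBV1, and the point at 15.01% is treated tumor 2.

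Taken as clusters, TRBJ2 genes made up 61.0% ± 4.57 (SD, n = 6) of TRBV1 clonotypes and 67.4% ± 2.43 of the others, lower with TRBV1 in 6 of 6 libraries. The exact sign-flip permutation test over libraries gave p = 0.0313, the smallest that 6 libraries allow, and 0.0729 after adjustment over the 7 CDR3 and J features tested. The 6 libraries come from 2 mice and are not all independent, here and in the sign-flip tests below. The difference was -4.36 and -4.85 percentage points in the spleens and -1.86 to -16.3 in the tumors.

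J use within TRBV1 was then compared between tissues. Treated against distant tumor, 2 of 12 TRBJ genes (16.7%) passed edgeR's quasi-likelihood test, both less frequent among treated-tumor clonotypes. TRBJ2-2 took 1.67% and 2.83% in the treated and 7.16% and 5.69% in the distant tumors (log2 fold change -1.58, SE 0.37, adjusted p = 0.0416, edgeR). TRBJ1-1 took 7.23% and 5.67% in the treated and 12.1% and 12.5% in the distant tumors (-0.91, SE 0.22, adjusted p = 0.0416, edgeR). The spleens, at 5.24% and 5.68% for TRBJ2-2 and 11.2% and 11.5% for TRBJ1-1, were near the distant tumors. Neither passed with the title number as a block (adjusted p = 0.147 for both, edgeR), and leaving out either distant tumor or either spleen left 0 genes called. TRBJ2-2 also did not pass without treated tumor 1 (-1.18, adjusted p = 0.170, edgeR).
For tumors against spleens, 0 of 12 TRBJ genes (0%) passed, and 1 (8.33%) had an unadjusted p under 0.05. That gene, TRBJ1-6, was higher in all tumors than in the spleens (log2 fold change 1.17, SE 0.27, adjusted p = 0.0621, edgeR), with the shares given above. DESeq2 called it (adjusted p = 0.00181), but under other settings on all 6 libraries its adjusted p ran up to 0.138 (edgeR). With 1 library left out, its log2 fold change ran from 0.99 to 1.32. Among the other TRBV genes, TRBJ1-6 was also higher in each tumor than in the spleens, by the shares listed above.

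The second cysteine was seen in nearly all TRBV1 transcripts. A cysteine stood at CDR3 position 3 in 97.2% to 98.1% of the TRBV1 reads of each library. This is a property of the germline gene and was not tested. Counted by clonotypes, the share was 85.1% and 85.6% in the treated tumors, 89.5% and 90.8% in the distant tumors, and 96.0% and 95.9% in the spleens. The start CTCS was kept in 87.1% to 94.1% of reads. The full germline CTCSA was kept in 57.3% and 60.5% of treated-tumor reads, 63.9% and 68.5% of distant-tumor reads, and 69.7% and 69.6% of spleen reads. The leading clonotypes of the treated tumors, with 17.4% and 20.9% of their TRBV1 reads, do not begin with CTCSA. Neither does the leader of distant tumor 1 (4.002%), whereas those of distant tumor 2 and the spleens do. Read shares of CTCSA without the leading clonotypes were not calculated.
Where CTCSA was intact, the next residue in the spleens was aspartate in 33.7% and 32.02% of clonotypes, glycine in 18.1% and 17.96%, and glutamate in 9.92% and 9.88%. Aspartate and glutamate are the residues that the 2 germline bases left after CTCSA can start. In the tumors aspartate ran from 21.6% to 32.2% and glutamate from 13.7% to 23.6%.
TRBV1 CDR3 sequences were longer than those of the other genes in every library, by 0.271 ± 0.185 residues (SD, n = 6). In the spleens the mean length was 14.2 residues in both for TRBV1 and 13.9 in both for the rest. In the tumors it was 14.5, 14.1, 14.1 and 14.0 residues for TRBV1, against 13.9 to 14.0 for the rest. The exact sign-flip permutation test gave p = 0.0313 and 0.0729 after adjustment, with 6 of 6 libraries in the same direction.

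**Figure D4:**
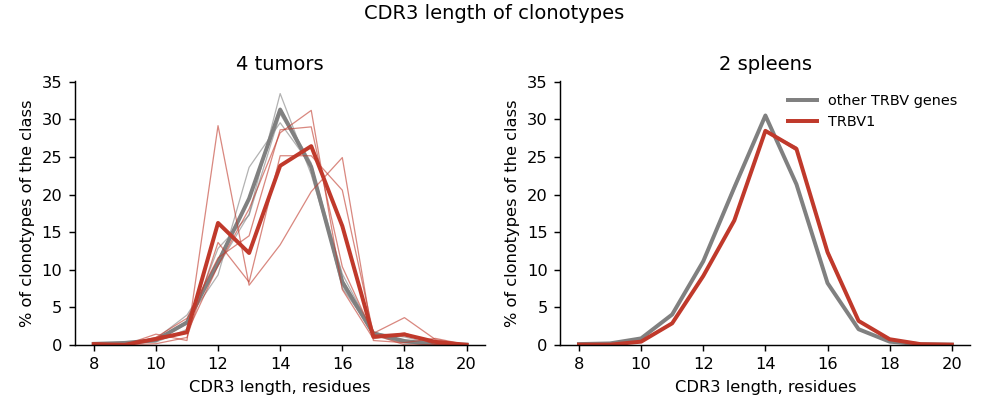
CDR3 length in residues against the percent of clonotypes of the class, for TRBV1 (red) and the other TRBV genes (gray), in 4 tumors (left) and 2 spleens (right); thick lines are means and thin lines are libraries. In the spleens 25.8% and 26.3% of TRBV1 clonotypes have 15 residues, against 21.6% and 21.2% of the others, and the tumor curves of TRBV1 vary from library to library.

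The germline V residues kept were counted from the first CDR3 residue up to the first mismatch. The highest possible count is 5 for TRBV1 and 4 to 7 for the other genes, so the scales differ. This count also ran higher for TRBV1 in 6 of 6 libraries, 3.70 ± 0.519 against 3.47 ± 0.426 (SD, n = 6, exact p = 0.0313, adjusted p = 0.0729). A count of 0, a mismatch at the first residue, was found in 6.96% to 13.9% of TRBV1 clonotypes in tumors and 2.87% and 2.74% in spleens. The TRBV1 means were 3.21 and 3.16 in the treated tumors, 3.48 and 3.72 in the distant tumors and 4.32 in both spleens. The other TRBV genes kept 3.06 to 3.35 in tumors and 4.02 and 3.99 in spleens, so both classes were lower in tumors when clonotypes were counted once. Weighted by reads this did not hold for the other genes, at 4.16 to 4.38 in tumors and 4.15 and 4.12 in spleens. For TRBV1 the read-weighted means were 4.36 to 4.43 in tumors and 4.47 and 4.46 in spleens.
None of the 7 features passed an adjusted p of 0.05, and the other 4 did not share 1 direction over all 6 libraries. With 6 libraries a feature could pass only if most of the 7 reached the smallest exact p. Not passing therefore decides nothing for the features at that value. The residues between germline V and J, which rest on the same count, numbered 5.44 ± 0.913 for TRBV1 and 5.55 ± 0.907 for the rest (exact p = 0.344, adjusted p = 0.401, n = 6). The mean net charge of the CDR3 middle, leaving out 4 residues at each end, was -0.45 ± 0.0880 and -0.40 ± 0.0355 (exact p = 0.156, adjusted p = 0.273, n = 6).
D1-type residues (GQG or DRG) were found in 6.07% ± 1.18 of TRBV1 clonotypes and 5.39% ± 0.642 of the rest (exact p = 0.219, adjusted p = 0.306, n = 6). D2-type residues (GLG or DWG) were found in 5.68% ± 2.31 and 6.38% ± 1.16 (exact p = 0.438, adjusted p = 0.438, n = 6). With TRBJ1 genes, D2-type residues were rare in TRBV1 clonotypes, at 0% to 1.5% of a library. With TRBJ2 genes they stood at 4.75% to 12.1%.

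The TRBV1 reads were concentrated in few clonotypes in the treated tumors, less so in the distant tumors and least in the spleens. The leading clonotype held 17.4% and 20.9% of the TRBV1 reads in the treated tumors, 4.002% and 5.83% in the distant tumors, and 0.874% and 0.381% in the spleens. The 10 leading clonotypes together held 41.8% and 57.6%, 27.2% and 25.0%, and 3.19% and 2.03%. The 3 groups did not overlap in either measure. Both measures are given for TRBV1 alone, so this order cannot be called particular to the gene. The leaders were taken from 353 to 719 TRBV1 clonotypes in a tumor and 5233 and 6386 in the spleens, and these numbers were not matched. With 2 libraries against 2 the exact permutation test cannot go below 0.333, and it gave 0.333 for treated against distant tumor in both measures.

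**Figure D5:**
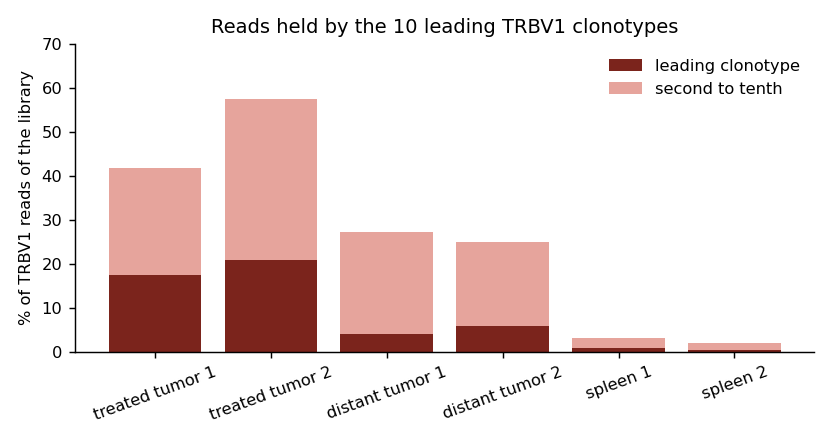
Percent of the TRBV1 reads of each library held by its leading clonotype (dark) and by those of rank 2 to 10 (light). Both treated tumors stand above both distant tumors, at 41.8% and 57.6% against 27.2% and 25.0% in all, and the spleens are at 3.19% and 2.03%.

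TRBV1 had 6.43 and 7.73 reads per clonotype in the treated tumors, 4.82 and 3.33 in the distant tumors, and 1.58 and 1.52 in the spleens. The other TRBV genes had 6.52 and 7.42, 7.45 and 4.13, and 1.49 and 1.47. TRBV1 was below the rest in both distant tumors and in treated tumor 1, and above in the other 3 libraries. The mean log2 ratio was -0.13 ± 0.29 (SD, n = 6, exact sign-flip p = 0.469).

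The leader of treated tumor 1, of 16 residues and joined to TRBJ2-3, had 805 reads or 0.968% of the library (rank 9 over all V genes). It had 1 read in distant tumor 1 and none in the other 4 libraries. The clonotype of rank 2 there, with TRBJ1-3 and 15 residues, had 307 reads and 3 more in spleen 1.
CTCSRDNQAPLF, joined to TRBJ1-5, was the largest TRBV1 clonotype of treated tumor 2, with 570 reads or 1.02% (rank 12 over all V genes). It also had 36 reads in distant tumor 2 and 2 in spleen 2, and none in the libraries of number 1. The clonotype of rank 2, with TRBJ1-6 and 15 residues, had 184 reads in treated tumor 2, 3 in distant tumor 2 and 1 in spleen 2. That of rank 3, with TRBJ2-1 and 16 residues, had 139 reads in treated tumor 2 and 1 in spleen 2.
The distant tumors had other leading sequences. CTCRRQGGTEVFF with TRBJ1-1 had 97 reads in distant tumor 1 and 1 in treated tumor 1. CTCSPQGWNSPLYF with TRBJ1-6 had 94 reads in distant tumor 1 and 1 in spleen 1. The leader of distant tumor 2, with TRBJ1-2 and 15 residues, had 99 reads there and 28 in treated tumor 2, and was not seen elsewhere. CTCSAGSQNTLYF with TRBJ2-4 had 66 reads in distant tumor 2, 6 in spleen 1 and 3 in spleen 2. A clonotype with TRBJ1-3 and 16 residues had 42 reads in distant tumor 2 and 2 in spleen 2.
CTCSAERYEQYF with TRBJ2-7 was the only TRBV1 clonotype seen in all 6 libraries. It had 262 and 41 reads in the treated tumors, 81 and 15 in the distant tumors and 72 and 37 in the spleens. Its share was highest in treated tumor 1 (0.315%) and lowest in spleen 2 (0.0273%), and it had rank 3 among the TRBV1 clonotypes in treated tumor 1 and distant tumor 1. Its CDR3 has 12 residues and begins with the intact CTCSA. Of the clonotypes of the other TRBV genes, 18 were in all 6 libraries, or 0.0103%, against 0.0078% of the TRBV1 clonotypes. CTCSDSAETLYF with TRBJ2-3 (0 to 19 reads) and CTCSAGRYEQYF with TRBJ2-7 (0 or 1 read) were each in 5 libraries. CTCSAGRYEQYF differs from the more abundant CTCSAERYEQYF by 1 residue.
In the spleens the clonotypes behind the leader were small. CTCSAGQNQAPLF had 41 reads in spleen 1 and 1 in spleen 2, and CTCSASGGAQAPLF had 33 in spleen 1 alone, both with TRBJ1-5. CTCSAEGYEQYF with TRBJ2-7 had 27 reads in spleen 2, 7 in distant tumor 2 and 1 in treated tumor 2.

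Tumors of the same title number had more TRBV1 clonotypes in common than tumors of different numbers. Treated and distant tumor 1 shared 19 clonotypes, which held 31.3% of the TRBV1 reads of the former and 15.8% of those of the latter. The 805-read leader of treated tumor 1 counts as shared through 1 read in distant tumor 1. Without clonotypes of 1 read, 12 were shared, with 13.4% and 13.6% of the reads, and at equal depth (42320 unmarked reads drawn from each library, mean of 20 draws) the shares were 20.01% and 13.7%. Treated and distant tumor 2 shared 18, with 46.2% and 14.96% of the reads. Pairs of tumors with different numbers shared 3 to 9. No test was possible with 2 mice. Among the other TRBV genes the same pairs shared 586 and 403 clonotypes. They held 40.003% and 46.5% of the reads in number 1 and 43.2% and 29.4% in number 2. Tumors of different numbers shared 107 to 190 clonotypes of the other genes, so the excess within a number was not particular to TRBV1. In number 1, 2.64% of treated-tumor and 3.78% of distant-tumor TRBV1 clonotypes were shared, against 4.87% and 5.48% for the other genes. In number 2 these parts were 5.10% and 3.53%, against 5.61% and 4.10%. The order in number 2 depended on the setting. With low-read variants of 1 residue merged, TRBV1 was higher there, at 6.19% and 3.196% against 4.82% and 2.799%. Without clonotypes of 1 read it was higher in treated tumor 2 (20.97% against 19.15%) and lower in distant tumor 2 (8.125% against 8.75%). In number 1 TRBV1 stayed lower in both tumors under these settings.
The shared clonotypes of highest level in both tumors of number 1, beside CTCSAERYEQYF, were a clonotype with TRBJ1-5 and 16 residues (31 reads treated, 39 distant) and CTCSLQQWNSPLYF with TRBJ1-6 (57 and 19). Neither was seen in another library. In number 2 they were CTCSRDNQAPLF, the leader of distant tumor 2 and a clonotype with TRBJ2-3 and 16 residues. The last had 115 reads in treated tumor 2, 31 in its distant tumor and 25 in spleen 2.
With its own spleen, treated tumor 1 shared 42 TRBV1 clonotypes, treated tumor 2 shared 34, distant tumor 1 shared 53 and distant tumor 2 shared 91. The spleen of the other number shared 39, 16, 41 and 39 with them. These counts depend on depth, which was 96907 unmarked reads in spleen 1 and 135599 in spleen 2. At equal depth the own spleen shared 24.6, 17.7, 30.8 and 59.6 and the other 18.1, 9.25, 16.1 and 26.8. In the full libraries the own-spleen counts were 5.84%, 9.63%, 10.5% and 17.8% of the TRBV1 clonotypes of the tumor. For the other genes these parts were 5.07%, 6.14%, 7.35% and 12.9%. The other genes also shared more with the own spleen (611, 441, 786 and 1273) than with the other (495, 209, 449 and 471). The 2 spleens shared 580 TRBV1 clonotypes, 11.1% of those in spleen 1 and 9.08% of those in spleen 2. For the other genes the parts were 9.47% and 6.56%. At equal depth the 2 spleens shared 181.75 TRBV1 clonotypes on average, or 6.53% and 7.16%, against 5.37% and 4.99% for the other genes.

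The V assignment could be set against the CDR3 start, since CTC is a TRBV1 germline start. Among sequences assigned to another TRBV gene, 2 to 16 in a library began with CTC, each with 1 read. A TRBV1 CDR3 was listed with another V gene in the same library for 0 to 2 clonotypes.
Marked TRBV1 sequences, 1403 of 15107 listed, lie outside the rule. They made up 21.3% and 19.0% of listed TRBV1 sequences in the treated tumors, 16.3% and 14.6% in the distant tumors and 6.94% and 7.93% in the spleens. For the other genes the shares were 15.8% and 16.1%, 16.7% and 12.9%, and 8.07% and 8.35%. TRBV1 was higher in 3 libraries and lower in 3, by 1.37 ± 2.55 percentage points on average (SD, n = 6, exact sign-flip p = 0.281).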

How the data were processed

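The authors deposited, per the file headers, a read count and a percent value for each CDR3 amino acid sequence with its TRBV and TRBJ gene, in 6 libraries. The counts are not normalized, and the deposited percent values equal reads over unmarked reads to within 0.00499 percentage points. Per the labels' protocols, cDNA was ligated to an adaptor, cut with SphI and amplified, and reads were 300 bases long and paired. The sources used here name no aligner, germline reference, genome build or treatment of read errors.

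Counts per gene were tested with edgeR 4.0.16 (R 4.3.3, filterByExpr, library total as scale, quasi-likelihood test, Benjamini-Hochberg adjustment over all genes of a kind, threshold 0.05) in a fit of 3 groups; DESeq2 1.42.0 was an alternative. Features were compared by exact two-sided permutation tests over libraries (scipy 1.17.1). P-values measure the spread between these libraries, and libraries of a mouse are not independent. As a choice made after seeing the data, a variant of 1 residue was merged into a clonotype of equal genes and length with at least 10 times its reads. For sharing at equal depth, 42320 unmarked reads were drawn from each library 20 times and averaged. Scripts were tested on simulated data. Positions and germline sequences are those of GENCODE M21, where all 35 gene symbols matched.

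Named were the neighbours of TRBV1 in mean share, the 3 genes most like it, the TRBJ genes that passed and the 3 most used. Named clonotypes were the 3 with most reads in each library, 5 found in most libraries (3 of these are described) and 3 of highest level in both tumors of a number. TRBV4 and TRBV21 complete a count of 4 and were chosen after their values were seen, and TRBV2 and TRBV30 are landmarks of the locus. TRBV12-1 was also named after its values were seen. The gene and the lists were chosen with earlier results of these data known. Title numbers were taken as mice because the series names 2; deviations of TRBV usage from the group means correlated at 0.540 (treated and distant tumor), 0.128 (treated tumor and spleen) and 0.0766 (distant tumor and spleen) between libraries of a number, over 21 genes.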

Additional observations from a re-analysis of the deposited data

Results flagged for a closer look

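Among 25 TRBV1 measures checked for a tumor far from the other 3 (by Dixon's gap over range), 2 stood out, and chance flags about 1 in 20 groups. The mean CDR3 length of TRBV1 clonotypes was 14.5 residues in treated tumor 1 and 14.0 to 14.1 in the other 3 tumors. That library holds 33 clonotypes that differ by 1 residue from its leading clonotype, which has 16 residues and TRBJ2-3. With such variants merged its mean was 14.4 residues. TRBJ2-1 took 16.4% of TRBV1 clonotypes in treated tumor 2 and 8.21% to 8.43% in the other 3 tumors. It was 15.9% there with variants merged.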

How the results depend on the processing

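TRBV1 kept its direction in both comparisons of its read share, and its adjusted p stayed above 0.05, under each alternative run: 0.0886 to 0.7998 for tumors against spleens and 0.266 to 0.955 for treated against distant tumor. The directions of 6 of the 7 CDR3 and J features were also kept. The net charge of the CDR3 middle changed sign when weighted by reads (0.0318, from -0.047). Reads per clonotype turned to a log2 ratio of 0.11 once the 10 leading clonotypes of a library were left out, and the difference in marked sequences to -0.945 percentage points without sequences of 1 read. The causes were not tested.

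For TRBV1 against the other genes, 3 TRBJ genes were called in the main test, 0 with reads, and 5 without clonotypes of 1 read as well as with DESeq2. With 1 library left out the count ran from 0 to 3. For treated against distant tumor the main count was 2, and it was 1 with TMM scaling. It was 0 with the replicate block, with DESeq2, without clonotypes of 1 read and with variants merged, and 0 to 4 with 1 library left out. For tumors against spleens the main count was 0, and it was 1 with DESeq2 and 1 with variants merged, and 0 to 3 with 1 library left out. The replicate block changed no other call. The clonotypes shared by both tumors of number 1 fell from 19 to 12 without clonotypes of 1 read. Those of number 2 fell from 18 to 13, and to 14 with variants merged.

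With 6 libraries of 2 mice and 353 to 719 TRBV1 clonotypes in a tumor, small differences were not detectable. No nucleotide sequences are used here, so sequencing errors cannot be told apart from clonotypes.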
